A study of Mus musculus with 12 samples.

Results

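The actin and contractile cytoskeleton genes described here were Acta2, Actb, Actg1, Tagln, Cnn1, Myl9, Tpm1, Tpm2, Tpm4 and Vcl, 10 of the 54345 genes listed for each library. They were taken by gene symbol, and all 10 were found. The RNA came from H9c2(2-1) cells of genotype WT, a line that the labels give as a mouse myoblast and the study's methods describe as rat cardiomyoblasts. Poly(A) RNA was sequenced after 6 h in 4 groups of 3 libraries. The groups were untreated cells (Unt), cells given doxorubicin, an anthracycline used in chemotherapy that damages heart muscle (DOX), cells given DOX together with dexrazoxane, a chelating drug used to protect the heart (D_DXZ), and cells given DOX together with magnesium hexacyanoferrate nanocatalysts (D_MgHCF). Every group except Unt thus received DOX, and DXZ or MgHCF without DOX was not analysed here. The doses used for the sequenced cells are not given in the sources used here. All libraries came from a single cell line, and nothing in the labels says that replicates were separate cultures, so the p-values measure the spread between these samples, which may be technical.

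Actin filaments are built from actin monomers that exist as several nearly identical proteins. Actb and Actg1 encode the cytoplasmic actins found in almost every cell, whereas Acta2 encodes the actin of smooth muscle and of activated fibroblasts. Tropomyosins lie along the filament and control which other proteins may bind it, myosin light chains such as Myl9 adjust the motor that pulls on it, and calponin (Cnn1) and transgelin (Tagln) bind it in smooth muscle. Vinculin (Vcl) ties filaments to adhesion sites at the membrane. Many of these genes are known targets of serum response factor, which binds a short element called the CArG box together with cofactors that sense free actin.

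Promoter sequences are shown to give the reader this element as it stands in the reference. RefSeq windows on GRCm38.p6, from 250 bases before to 50 bases after the transcript start, were given for 8 of the 10 genes. Actb and Tagln had no entry. The CArG box was searched on both strands in its strict form. It was found in 3 of these genes, Actg1, Vcl and Myl9, and in 535 of all 32851 promoter windows (1.63%). The 60 bases around each box are printed 5′ to 3′ on the strand of the gene, and capitals mark the box.
Actg1, chr11:120348551-120348610, minus strand, box 90 bases before the start: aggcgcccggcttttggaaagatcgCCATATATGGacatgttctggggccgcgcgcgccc
Vcl, chr14:20929148-20929207, plus strand, box 227 bases before the start: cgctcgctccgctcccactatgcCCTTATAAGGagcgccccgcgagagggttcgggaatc
Myl9, chr2:156775278-156775337, plus strand, box 161 bases before the start: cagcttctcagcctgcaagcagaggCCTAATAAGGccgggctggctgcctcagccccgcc
The strict box was not in the windows of Acta2, Cnn1, Tpm1, Tpm2 and Tpm4, which says only that these letters are not in these windows. The shorter motif TATAAA was in none of the 8 windows and in 13.6% of all windows. CATTCC, the core bound by TEAD factors, was in the windows of Acta2, Tpm1 and Vcl and in 14.7% of all windows, counting both strands. These are mouse sequences, and a match is a description of the reference, not a measured site.

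Expression was deposited as FPKM, fragments per kilobase of gene length scaled for library size, so levels of different genes are compared per length below. The cells are rat by the study's methods and the genes are those of the mouse reference. What this does to levels, ranks and ratios of different genes was not tested. Between 16626514 and 19365119 reads per library were assigned to genes, as recovered from the deposited values. The scaling inside the deposited FPKM was not the total read number. It equalled a median-ratio factor, and it set the sum of all FPKM to 498756 to 627769 in the DOX libraries and 447052 to 549680 in those of D_DXZ, against 216899 to 230292 for Unt and 220276 to 290996 for D_MgHCF. The share of gene reads that fell on the 10 genes needs no such scaling. It was 1.19% to 1.34% in DOX and 1.18% to 1.36% in D_DXZ. The Unt libraries had 0.477% to 0.536%, and the D_MgHCF libraries 0.387% to 0.458%. In bulk RNA, fewer cells of a type and less RNA per cell cannot be told apart.

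Replicate 3 of D_MgHCF stood apart from the other libraries of its group. Its log2 values correlated across genes with those of replicates 1 and 2 at r = 0.942 and 0.964, against 0.984 between replicates 1 and 2 and 0.9895 to 0.9953 within the other groups. Counts over the 10 genes that rest on D_MgHCF are therefore also given without it, as are many of the values of single genes.

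Markers of the labelled cell type were weak. None of the 7 skeletal myoblast markers reached a mean of 1 FPKM over the 12 libraries, and their most abundant gene, Des, stood between 0.339 and 1.57 FPKM. Of the 8 cardiac muscle markers 1 reached that mean (Gata4), of the 7 smooth muscle markers 2 (Acta2 and Smtn), of the 7 fibroblast markers 3 (Col1a1, Col1a2 and Col3a1), of the 5 immune markers 1 (Cd68), and none of the 5 endothelial and 4 epithelial markers did. The summed FPKM of the fibroblast markers ran from 140 to 177 for DOX and from 108 to 152 for D_DXZ, against 60.9 to 66.6 for Unt and 30.4 to 63.9 for D_MgHCF. That sum was thus higher in DOX than in Unt, as the 10 genes and the summed FPKM of all genes were. The immune marker sum was also higher (1.04 to 1.22 FPKM for Unt, 3.01 to 3.79 for DOX), again as the summed FPKM of all genes was. It was above Unt in D_DXZ (4.14 to 4.65) and in D_MgHCF (2.01 to 5.41) too. Most of it was Cd68 (mean 1.03 FPKM in Unt and 3.06 in DOX), and 1 of the 4 immune markers tested was called higher in DOX than in Unt. The cardiac marker sum was lower in DOX (3.18 to 5.97 FPKM, against 9.77 to 11.2 for Unt) and highest in D_MgHCF (15.0 to 26.5). Most of this sum was Gata4 (mean 10.3 FPKM in Unt, 3.35 in DOX and 19.2 in D_MgHCF). Of the 6 cardiac markers tested, 1 was called higher and 1 lower in DOX than in Unt, so these markers did not move together. The part of these markers in the results was not tested. The smooth muscle marker Myh11 was at or below 0.126 FPKM and Myocd at or below 0.0122 FPKM in every library, although Acta2 was among the most abundant genes.

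DOX was compared with Unt to ask what the drug does to these genes. In the deposited FPKM, 9 of the 10 genes rose and none fell, with a median log2 fold change of 2.02, and Cnn1 did not pass the test. The abundant genes rose 3.25-fold (Actb) to 6.53-fold (Tpm1) in mean FPKM. Of all 25044 genes tested, 18.6% were called higher and 19.9% lower in this comparison, with a median log2 fold change of 0. All 10 genes had DOX libraries above every Unt library, as had 25.3% of all genes tested. Abundant genes as a whole moved the same way. Of the 2314 genes with a mean of at least 25 FPKM, a background chosen after the values were seen, 82.5% were called higher and 4.84% lower, with a median of 1.40. That mean is over all 12 libraries, so a gene can enter this background through high DOX and D_DXZ values. The part of this in the share called higher was not tested. The share of the 10 genes called higher was thus near that of abundant genes. By size, the rises of Tpm1, Acta2, Tpm4 and Actg1 were above those of 98.7%, 98.4%, 97.9% and 95.4% of the abundant genes, and that of Actb was above 67.8%.

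D_DXZ was compared with both Unt and DOX. Against Unt, 8 of the 10 genes rose and none fell, with a median log2 fold change of 1.77, beside 15.9% of all genes called higher and 18% lower and 78.4% of the abundant genes higher (median 1.13). The genes not called were Tagln and Cnn1. Against DOX, none of the 10 genes was called in D_DXZ, nor was any gene of the whole table (0% higher and 0% lower, limma). At an unadjusted p under 0.05, 1143 genes were higher and 1245 lower, and Tpm2 was the only gene of the 10 among them (log2 fold change -0.34, SE 0.15, unadjusted p = 0.0452, adjusted p = 0.513). The log2 differences of the 10 genes ran from -0.34 (Tpm2) to -0.03 (Tagln). For the abundant genes the 95% confidence intervals reached down to -0.91 for Acta2 and -0.85 for Tpm4, so a moderate decrease could not be told from no change at this spread.

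The D_MgHCF libraries had 23368 to 25456 genes above 0 FPKM, against 18530 to 20660 in all other libraries. Their epithelial marker sum was 0.425 to 1.63 FPKM, against 0.189 to 0.233 for DOX, and 4 of the 4 epithelial markers were called higher than in DOX, with Krt8 the most abundant. Their endothelial marker sum was 0.286 to 1.15 FPKM, against 0.0645 to 0.208 for DOX, with Pecam1 the most abundant and 2 of the 5 markers called higher. The part of these differences in the following results was not tested. Against DOX, 9 of the 10 genes fell and none rose, with a median log2 fold change of -2.04, whereas 31.4% of all genes were called higher and 20.1% lower. Among the 2314 abundant genes 84.4% were called lower and 5.32% higher, with a median of -1.39, so the share called was again near that of abundant genes. By size, 0.346% of the abundant genes fell further than Actg1, 1.73% further than Tpm1 and 50.5% further than Vcl. Tagln and Myl9 are too low to belong to that class. Without replicate 3 of D_MgHCF, the count was 9 lower and 1 higher, the latter being Cnn1. Against D_DXZ, 8 of the 10 genes fell and none rose, with a median of -1.76, beside 29.4% of all genes higher and 19% lower and 79.6% of the abundant genes lower (median -1.14). Without replicate 3 this count was 8 lower and 1 higher. The 3 treated groups were compared with shared control libraries, so these comparisons are not independent of each other.

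Against Unt, D_MgHCF brought no common direction. Actb and Actg1 were called lower, Vcl and Cnn1 were called higher, and 6 genes were not called, with a median log2 fold change of 0.03. Of all genes 24.3% were called higher and 15.7% lower. Of the abundant genes 22.8% were called higher and 25.8% lower. The same 2 genes in each direction were called without replicate 3. Leaving out each Unt library in turn gave 0 of the 10 genes higher, and leaving out replicate 1 or 2 of D_MgHCF gave 1.

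**Figure D1:**
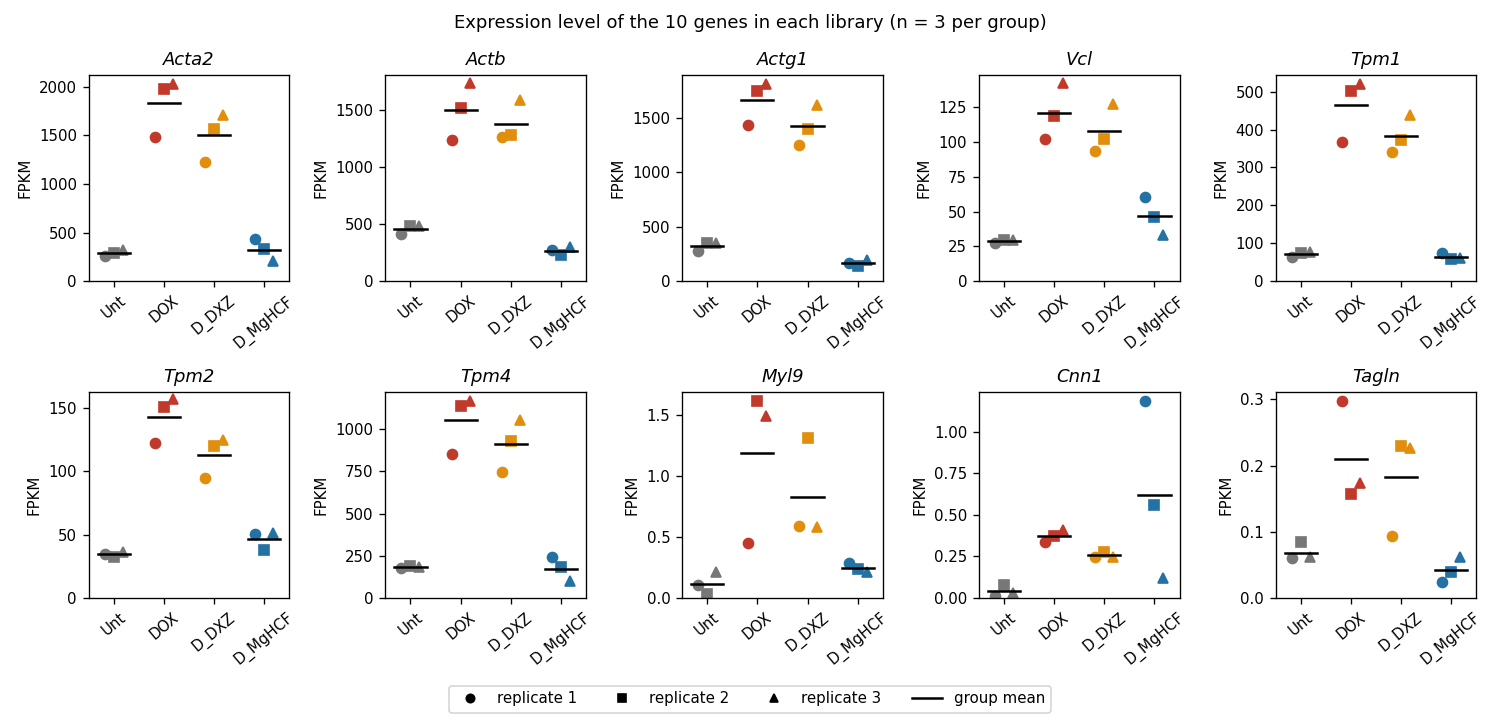
Expression level in FPKM (y axis, linear, starting at 0) of each of the 10 genes in the 4 groups (x axis), with 1 point per library, the symbol giving the replicate, and a black line at the group mean. For the 7 abundant genes the DOX and D_DXZ points lie above all Unt and D_MgHCF points, and Myl9, Cnn1 and Tagln stay below 2 FPKM throughout.

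The smooth muscle actin Acta2 (ENSMUSG00000035783, chr19:34241090-34255336 on GRCm38, minus strand) stood at 262, 295 and 323 FPKM in Unt, 1482, 1980 and 2032 in DOX, 1225, 1567 and 1709 in D_DXZ, and 436, 332 and 208 in D_MgHCF. The DOX and D_DXZ libraries were all above the Unt and D_MgHCF libraries, and the latter groups overlapped. Within its library, Acta2 ranked 56th to 70th by FPKM in Unt, 22nd to 26th in DOX and 70th to 97th in D_MgHCF. The mean rose from 293 ± 30.3 in Unt to 1831 ± 304 in DOX (SD, n = 3 each), which is 6.24-fold (log2 fold change 2.63, SE 0.28, adjusted p = 4.04e-05, limma). It fell 5.63-fold from DOX to D_MgHCF (-2.54, SE 0.28, adjusted p = 4.24e-05). Against Unt, D_MgHCF differed by 0.09 (SE 0.28, adjusted p = 0.826), with a 95% confidence interval from -0.53 to 0.71. Without replicate 3 of D_MgHCF the changes of Acta2 were -2.25 against DOX (adjusted p = 3.6e-05) and 0.38 against Unt (adjusted p = 0.216). Acta2 had no stretch of at least 150 bases at 95% identity or more in a transcript of another gene.

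Actb (ENSMUSG00000029580, chr5:142903115-142906754, minus strand), the cytoplasmic beta actin often used as a loading control, stood at 416, 481 and 487 FPKM in Unt, 1238, 1525 and 1737 in DOX, 1263, 1281 and 1592 in D_DXZ, and 276, 229 and 297 in D_MgHCF. All D_MgHCF libraries were below all Unt libraries. Its rise in DOX was the smallest of the 7 abundant genes (3.25-fold, log2 fold change 1.69, SE 0.20, adjusted p = 7.52e-05). This rise depended on the scaling. It was not called with TPM (0.32, adjusted p = 0.0862) and turned to -0.30 with quantile normalization (adjusted p = 0.251). Between Unt and D_MgHCF, Actb fell 1.72-fold (-0.79, SE 0.20, adjusted p = 0.0113), a call lost with only the 2 groups compared (adjusted p = 0.052). Without replicate 3 this fall was -0.87.

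Actg1 (ENSMUSG00000062825, chr11:120345690-120348542, minus strand), the cytoplasmic gamma actin and carrier of the box shown above, stood at 281, 348 and 349 FPKM in Unt, 1438, 1747 and 1815 in DOX, 1256, 1397 and 1624 in D_DXZ, and 169, 143 and 195 in D_MgHCF. Its DOX libraries were above, and its D_MgHCF libraries below, every Unt library. The rise in DOX was 5.11-fold (2.35, SE 0.19, adjusted p = 1.31e-05). From DOX to D_MgHCF it fell 9.86-fold (-3.30, SE 0.19, adjusted p = 2.6e-06), the largest fall of the 10 genes in that comparison, and D_MgHCF was below Unt by 0.95 on the log2 scale (SE 0.19, adjusted p = 0.00354). Without replicate 3 of D_MgHCF the changes of Actg1 were -3.41 and -1.06, both called. Stretches nearly identical to Actg1 lie in transcripts of 7 other genes, among them Gm12715 (99.6% over 1128 bases, mean 46.8 FPKM) and Gm8399 (98.6% over 1125 bases, mean 10.9 FPKM), so its level is uncertain by reads that could be assigned to either.

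Ratios within a library compare these actins without any library scaling. Acta2 to Actb was 0.631, 0.613 and 0.664 in Unt, 1.2, 1.3 and 1.17 in DOX, 0.970, 1.22 and 1.07 in D_DXZ, and 1.58, 1.45 and 0.702 in D_MgHCF. Acta2 was thus below Actb in every Unt library and above it in every DOX library. The ratio was 1.92 times higher in DOX than in Unt and no library of these groups overlapped, which with 3 against 3 libraries gives an exact two-sided permutation p of 0.1, the smallest possible (0.214 after Benjamini-Hochberg adjustment over 30 tests of ratios). In D_MgHCF the order was set by the libraries, since replicate 3 alone lay near the Unt values. Actg1 to Actb was 0.676, 0.724 and 0.717 in Unt, 1.16, 1.15 and 1.04 in DOX, 0.995, 1.09 and 1.02 in D_DXZ, and 0.613, 0.622 and 0.658 in D_MgHCF. The 3 D_MgHCF libraries were close together here and all below the Unt libraries, and the DOX libraries were 1.58 times higher than Unt (exact permutation p = 0.1 for both, adjusted 0.214). With 3 libraries a group, this exact permutation test of a ratio cannot pass 0.05.

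**Figure D2:**
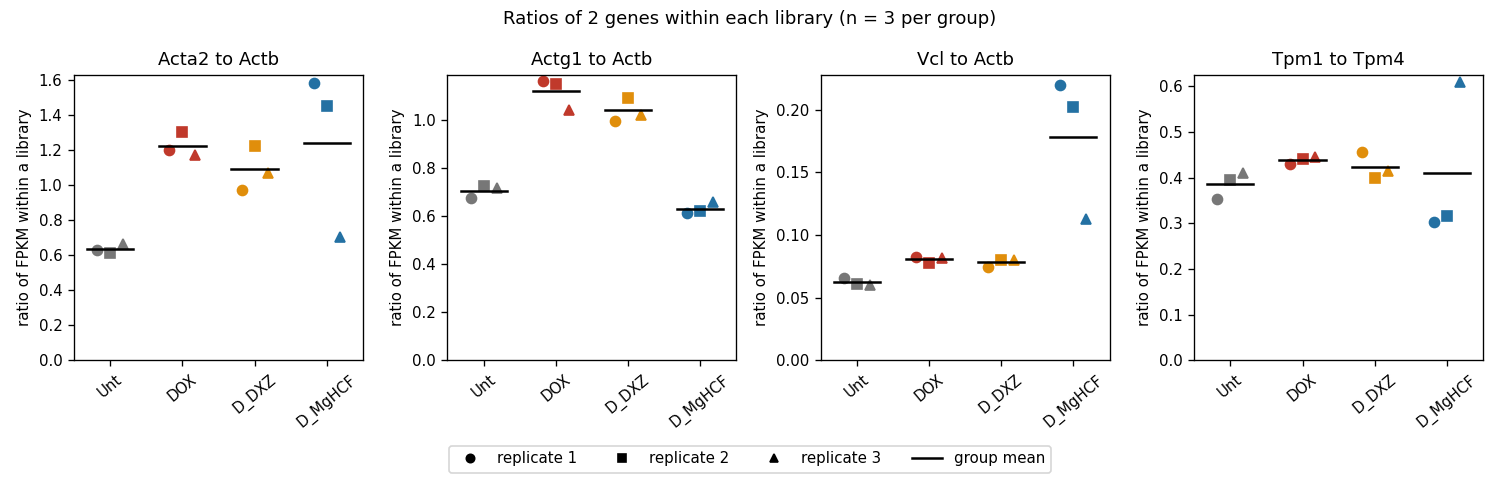
Ratio of the FPKM values of 2 genes within each library (y axis, linear, starting at 0) in the 4 groups (x axis), with 1 point per library and a black line at the group mean. Acta2 to Actb rises from about 0.636 in Unt to 1.22 in DOX, Actg1 to Actb is lowest in D_MgHCF, and replicate 3 of D_MgHCF lies apart from replicates 1 and 2 in 3 of the 4 panels.

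The tropomyosins rose in DOX to different extents. Tpm1 (ENSMUSG00000032366, chr9:67022590-67049406, minus strand), present in muscle and non-muscle cells, stood at 62.8, 74.1 and 76.3 FPKM in Unt, 368, 503 and 521 in DOX, 341, 372 and 437 in D_DXZ, and 73.7, 57.6 and 61.4 in D_MgHCF. Its 6.53-fold rise was the largest of the 7 abundant genes (2.68, SE 0.17, adjusted p = 1.06e-05), and its D_MgHCF libraries overlapped those of Unt (-0.15, SE 0.17, adjusted p = 0.513, and -0.12 without replicate 3). Tpm4 (ENSMUSG00000031799, chr8:72134975-72153142, plus strand), which binds filaments of the non-muscle cytoskeleton, stood at 178, 187 and 186 FPKM in Unt, 855, 1140 and 1170 in DOX, 747, 932 and 1057 in D_DXZ, and 242, 182 and 101 in D_MgHCF. It was the most abundant tropomyosin per length in every library and rose 5.75-fold in DOX (2.50, SE 0.29, adjusted p = 6.27e-05). In D_MgHCF, Tpm4 differed from Unt by -0.16 (adjusted p = 0.696), and by 0.19 without replicate 3 (adjusted p = 0.482). A stretch of Tpm4 is 96.8% identical over 743 bases to Gm7809 (mean 9.40 FPKM), and Gm16091 overlaps Tpm4 on the opposite strand (mean 2.18 FPKM).

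Tpm2 (ENSMUSG00000028464, chr4:43514711-43523765, minus strand), best known from slow skeletal and smooth muscle, stood at 34.6, 32.6 and 36.6 FPKM in Unt, 122, 151 and 157 in DOX, 94.5, 120 and 124 in D_DXZ, and 50.4, 38.0 and 51.0 in D_MgHCF. It was the lowest of the 3 tropomyosins and the only one whose D_MgHCF libraries were all above those of Unt. The rise in DOX was 4.14-fold (2.01, SE 0.15, adjusted p = 1.17e-05). The difference between D_MgHCF and Unt was 0.40 (SE 0.15, adjusted p = 0.0543). It passed the test without replicate 1 of DOX (adjusted p = 0.0470), replicate 1 of D_DXZ (0.0420) or replicate 2 of D_MgHCF (0.0214), with a filter at 1 FPKM (0.0470), with summed reads (0.42, adjusted p = 0.00579) and with quantile normalization (0.42, adjusted p = 0.0149), but not with TPM (0.26, adjusted p = 0.0946). Tpm1 to Tpm4 was 0.353 to 0.411 in Unt and 0.430 to 0.445 in DOX, and in D_MgHCF it was 0.304 and 0.317 in replicates 1 and 2 but 0.610 in replicate 3.

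Vcl (ENSMUSG00000021823, chr14:20929398-21033676, plus strand) stood at 27.5, 29.4 and 29.3 FPKM in Unt, 102, 119 and 143 in DOX, 94.0, 103 and 128 in D_DXZ, and 60.8, 46.3 and 33.5 in D_MgHCF. The D_MgHCF libraries lay between those of Unt and those of DOX with no overlap. Vcl rose 4.22-fold in DOX (2.03, SE 0.20, adjusted p = 2.93e-05). It fell less than the other abundant genes from DOX to D_MgHCF (2.59-fold, -1.38, SE 0.20, adjusted p = 0.000262). That fall was not called with TPM (-0.18, adjusted p = 0.224) or quantile normalization (-0.24, adjusted p = 0.318). In D_MgHCF, Vcl was 1.63-fold above Unt (0.65, SE 0.20, adjusted p = 0.0284). This last call was lost without any of the 3 Unt libraries (adjusted p 0.0647 to 0.0811) or without replicate 1 or 2 of D_MgHCF (0.0923 and 0.0736). The call was also lost with the replicate block (0.053) and with only the 2 groups compared (0.0765). Without replicate 3 the difference from Unt was 0.86 (adjusted p = 0.00238). Vcl to Actb was 0.0603 to 0.0660 in Unt, 0.0778 to 0.0826 in DOX, and 0.220, 0.202 and 0.113 in D_MgHCF, where each library was above all others of the series (2.74 times Unt, exact permutation p = 0.1, adjusted 0.214). Part of Vcl overlaps Ap3m1 on the opposite strand (mean 13.4 FPKM), and whether reads were counted by strand is not stated.

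The classical smooth muscle genes Myl9, Cnn1 and Tagln were near the limit of detection, with 6 to 115 reads per group, and are given with their reads. The cells are rat by the study's methods and the genes are those of the mouse reference, and what this does to the level of a gene was not tested. Intervals on their read ratios cover counting error only. These ratios use the scaling of the deposited FPKM. That scaling was 1.32 to 1.38 times the gene reads in Unt and 0.65 to 0.78 times in DOX. Scaling to the gene reads would thus give smaller ratios of DOX over Unt. Myl9 (ENSMUSG00000067818, chr2:156775420-156781658), the regulatory light chain of smooth muscle and non-muscle myosin, stood at 0.103, 0.0359 and 0.211 FPKM in Unt, 0.454, 1.61 and 1.49 in DOX, 0.586, 1.31 and 0.580 in D_DXZ, and 0.287, 0.237 and 0.210 in D_MgHCF. These values rest on 10, 52, 40 and 20 reads per group. The DOX libraries were all above those of Unt, and the scaled read ratio was 9.66 (95% interval 4.86 to 21.3). Myl9 passed the test in DOX (0.92, SE 0.22, adjusted p = 0.00613) and in D_DXZ (0.69, SE 0.22, adjusted p = 0.0327) against Unt. The D_DXZ call was lost without replicate 1, 2 or 3 of Unt (adjusted p = 0.0851, 0.105 and 0.0551) or replicate 2 of D_DXZ (0.125). Its fall from DOX to D_MgHCF (-0.76, adjusted p = 0.0144) was lost without replicate 2 or 3 of DOX (0.0569 and 0.0565), and was -0.74 without replicate 3 of D_MgHCF (0.0300). From D_DXZ to D_MgHCF the change was -0.53 (adjusted p = 0.0690), which passed without replicate 1 of DOX (0.0156), with quantile normalization (0.0374), with a filter at 1 FPKM (0.0474) and with a pseudocount of 0.1 (0.0478).

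Cnn1 (ENSMUSG00000001349, chr9:22099216-22109630), calponin 1, was the only gene of the 10 with its highest group mean in D_MgHCF. It stood at 0.0145, 0.0763 and 0.0299 FPKM in Unt, 0.337, 0.370 and 0.411 in DOX, 0.249, 0.279 and 0.246 in D_DXZ, and 1.18, 0.560 and 0.119 in D_MgHCF, on 8, 40, 30 and 115 reads per group. Within D_MgHCF the reads fell on replicate 1 (68), replicate 2 (39) and replicate 3 (8). Against Unt the change in DOX was 0.40 (SE 0.18, adjusted p = 0.117), and it passed the test without replicate 1 (0.0102) or replicate 3 (0.00978) of D_MgHCF, whose spread enters the shared error. It also passed with a pseudocount of 0.1 (1.77, adjusted p = 0.0190), with voom on recovered reads (3.23, adjusted p = 0.0125), with quantile normalization (0.48, adjusted p = 0.0107) and with only the 2 groups compared (adjusted p = 0.00048). The scaled read ratio of Cnn1 in DOX over Unt was 9.29 (95% interval 4.29 to 23.0), and that in D_MgHCF over Unt was 14.9 (7.31 to 35.3). In D_MgHCF, Cnn1 was higher than in Unt (0.59, SE 0.18, adjusted p = 0.0268), a call lost without replicate 1, 2 or 3 of Unt (0.0743, 0.0587 and 0.0694) or replicate 2 of D_MgHCF (0.0666), with quantile normalization (0.34, adjusted p = 0.0547) and with only the 2 groups compared (0.118). With voom on recovered reads it was 3.39 (adjusted p = 0.00671). Its size fell to 0.35 without replicate 1 of D_MgHCF and reached 0.83 without replicate 3. Against DOX it differed by 0.19 (adjusted p = 0.414), and without replicate 3 by 0.43 (adjusted p = 0.00972).

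Tagln (ENSMUSG00000032085, chr9:45929619-45936058), transgelin, had the fewest reads, 10 in Unt, 17 in DOX, 15 in D_DXZ and 6 in D_MgHCF. Its levels were 0.0600, 0.0840 and 0.0618 FPKM in Unt, 0.298, 0.157 and 0.174 in DOX, 0.0935, 0.230 and 0.226 in D_DXZ, and 0.0239, 0.0395 and 0.0615 in D_MgHCF. Tagln passed the test in DOX against Unt (0.18, SE 0.06, adjusted p = 0.0259), and this was lost without replicate 1, 2 or 3 of Unt (0.0750, 0.0519 and 0.0729) or replicate 1 of DOX (0.0901). The change in D_DXZ against Unt (0.14, adjusted p = 0.0684) passed without replicate 1 of DOX (0.0356) or replicate 1 of D_DXZ (0.0120). In D_MgHCF it was lower than in DOX (-0.21, adjusted p = 0.00823) and than in D_DXZ (-0.18, adjusted p = 0.0198), the latter lost without replicate 2 or 3 of D_DXZ (0.0714 and 0.0710) or replicate 1 or 2 of D_MgHCF (0.0549 and 0.0517). Without replicate 3 of D_MgHCF both Tagln calls held (-0.23 and -0.20). Tagln to Actb averaged 0.000149 in Unt, 0.000148 in DOX, 0.000132 in D_DXZ and 0.000155 in D_MgHCF with all groups overlapping, so transgelin stayed far below beta actin per length. Pcsk7 overlaps Tagln on the opposite strand at a mean of 7.20 FPKM, far above Tagln itself.

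**Figure D3:**
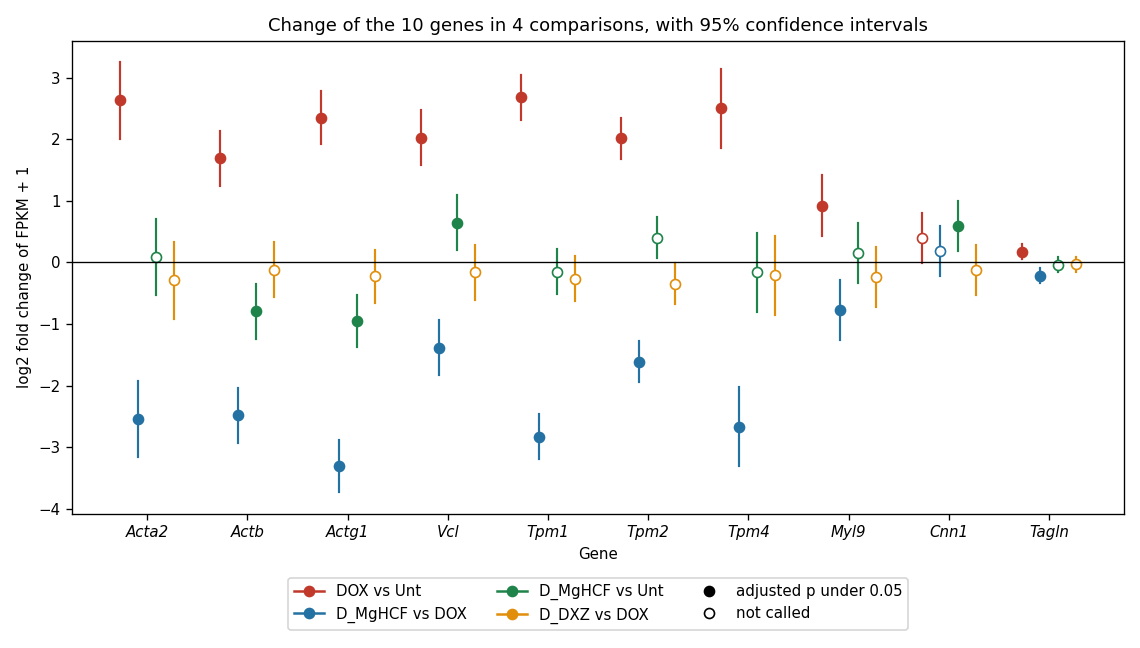
Log2 fold change of FPKM + 1 (y axis) of each of the 10 genes (x axis) in 4 comparisons, with bars for 95% confidence intervals and filled points for an adjusted p under 0.05. DOX against Unt reaches 2.68 for Tpm1, D_MgHCF against DOX reaches -3.30 for Actg1, and no point of D_DXZ against DOX is filled.

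The size of these changes depended on the library scaling. Scaled to the summed reads, the median log2 fold change of the 10 genes in DOX against Unt was 1.08 and 8 genes rose. Of all genes 2075 were then higher and 8303 lower, and of the abundant genes 55.7% were higher and 17.5% lower. With quantile normalization the median of the 10 genes was 0.73 and 8 genes rose. Of all genes 4170 were then higher and 4340 lower, and of the abundant genes 40.3% were higher and 21.5% lower. Scaled to TPM, in which every library sums to the same total, the median of the 10 genes was 0.82 and 7 genes rose. TPM moved the median of all genes to -0.30 in this comparison and to 0.56 in D_MgHCF against DOX, and relative to the median of all genes the 10 genes then stood at 1.12 and -1.46. The split of all genes changed from 4649 higher and 4973 lower to 1111 higher and 10227 lower. Of the 2314 abundant genes, 33.1% were then called higher and 29.2% lower in DOX, with a median of 0.06. Acta2, Tpm1, Tpm2, Tpm4 and Vcl were called higher in DOX under each of the 4 scalings, at 0.67 (Tpm2, TPM) or more. Actb was 1.69 in the deposited FPKM, 0.74 with summed reads, 0.32 with TPM (adjusted p = 0.0862) and -0.30 with quantile normalization (adjusted p = 0.251), so its direction was not settled. Actg1 was called higher except with quantile normalization (0.42, adjusted p = 0.127).

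In D_MgHCF against DOX, TPM scaling gave a median log2 fold change of -0.90 for the 10 genes, with 6 lower and 1 higher. Of all genes 13504 were then higher and 1691 lower, and of the abundant genes 24.7% were higher and 40.5% lower. With summed reads the median was -1.08 and 7 genes fell. Under that scaling 12376 of all genes were higher and 2401 lower, and 54.6% of the abundant genes were lower. With quantile normalization the median was -0.86 and 8 genes fell, beside 4626 of all genes higher and 4914 lower. Of the abundant genes 41.7% were then lower. Scaling moved the D_MgHCF comparisons less against Unt than against DOX. The fall of Actb below Unt was -0.77 with summed reads, -0.94 with TPM and -1.08 with quantile normalization, and that of Actg1 was -0.93, -1.10 and -1.24, all called. Vcl stayed above Unt at 0.67, 0.51 and 0.68, also called each time. Tpm1 was called below Unt with TPM (-0.30, adjusted p = 0.0238) but not with summed reads (-0.13) or quantile normalization (-0.28, adjusted p = 0.0514). Against DOX, Actb, Actg1, Acta2, Tpm1, Tpm2 and Tpm4 were called lower under each scaling, but Vcl was not called with TPM (-0.18, adjusted p = 0.224) or quantile normalization (-0.24, adjusted p = 0.318). Among the low genes, Tagln was not called in DOX against Unt with TPM (0.07, adjusted p = 0.742) or summed reads (0.07, adjusted p = 0.309), and the fall of Myl9 from DOX to D_MgHCF was not called with either (adjusted p = 0.139 and 0.0637). Tagln in D_MgHCF was called with neither against DOX (adjusted p = 0.119 and 0.0584) nor against D_DXZ (0.169 and 0.0818). The rise of Myl9 in D_DXZ against Unt was not called with TPM (adjusted p = 0.0548) or quantile normalization (0.0533), nor without a filter (0.0552). Cnn1 in D_MgHCF against DOX was called higher with TPM (0.85, adjusted p = 0.0465) and stood at -0.15 with quantile normalization (adjusted p = 0.389).

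**Figure D4:**
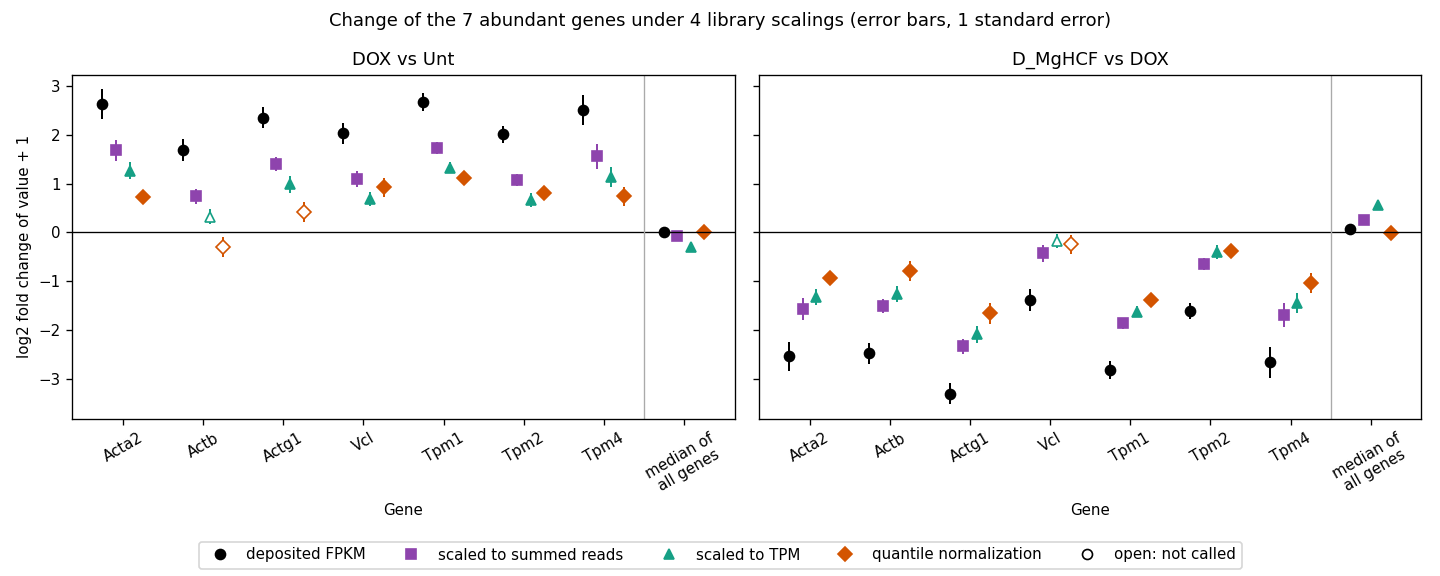
Log2 fold change of the scaled value + 1 (y axis) of the 7 abundant genes and the median of all genes (x axis) under 4 library scalings, in DOX against Unt (left) and D_MgHCF against DOX (right), with bars of 1 standard error and open points for genes not called. Actb in DOX runs from 1.69 down to -0.30 across scalings, whereas Tpm1 stays at 1.11 or above.

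Genes that work with these 10 were followed through lists fixed alongside them. Their counts stand beside the shares of all genes given above and, where members are abundant, beside the 82.5% of abundant genes called higher in DOX against Unt and the 84.4% called lower in D_MgHCF against DOX. Counts under TPM stand beside the TPM shares given above. No list was tested against these shares. Among 28 actin assembly genes, which sever, cap, nucleate or store actin, 25 were higher and 2 lower in DOX than in Unt (median 1.66), and going from DOX to D_MgHCF 1 rose and 24 fell (median -1.71), shares near those of abundant genes, to which 22 of the 28 belong. With TPM scaling these counts were 14 higher and 3 lower, and 4 higher and 18 lower. The filament-severing genes Dstn (71.3 to 526 FPKM, log2 fold change 2.86) and Cfl1 (343 to 2180 FPKM, 2.66) and the actin-monomer binder Tmsb10 (122 to 751 FPKM, 2.60) had the largest rises, and all were called under each scaling. Wasl, an activator of the Arp2/3 complex, fell (9.40 to 2.32 FPKM, -1.65).

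Against Unt, D_MgHCF split this list, with 9 of the 28 genes higher and 7 lower, and 10 and 10 without replicate 3. Abundant genes split as well, with 22.8% higher and 25.8% lower, and 31.9% and 28.4% without replicate 3. Cotl1, a coactosin-like filament binder, stood at 37.3, 34.1 and 41.9 FPKM in Unt and 116, 110 and 129 in D_MgHCF (1.62, adjusted p = 2.24e-05), and Dstn (1.05) and Tmsb10 (1.02) were also higher. Actr3, a subunit of the Arp2/3 complex that nucleates branched filaments, stood at 53.0, 54.3 and 57.6 FPKM in Unt and 6.28, 9.56 and 27.8 in D_MgHCF (-2.10). The formin Diaph3 (-1.31) and the capping subunit Capza1 (-0.84) were lower too. Calls for Cotl1, Dstn, Tmsb10, Actr3 and Diaph3 held under each of the 4 scalings and without replicate 3.

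Of 14 further smooth muscle contractile genes, 7 were higher and 1 lower in DOX than in Unt (median 0.58), and going from DOX to D_MgHCF 3 rose and 8 fell, also without replicate 3. Of these 14 genes 7 are abundant. With TPM scaling the DOX count was 5 higher and 6 lower, and that of D_MgHCF against DOX turned to 7 higher and 5 lower (median 0.23). The rises were led by Tagln2 (81.0 to 406 FPKM, 2.31), Csrp1 (58.2 to 262, 2.14) and the filament binder Cald1 (36.0 to 158, 2.10), and Des fell (1.46 to 0.552). Smoothelin (Smtn), found in contractile smooth muscle, stood at 7.02, 7.83 and 8.20 FPKM in Unt and 19.1, 17.4 and 14.0 in D_MgHCF (1.03, adjusted p = 0.000324), with the groups apart. Myh11 and Lmod1, defining genes of mature smooth muscle, were at or below 0.351 FPKM in every library.

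Among 11 genes of non-muscle myosin II and its control, 7 were higher and 1 lower in DOX (median 1.25), and going from DOX to D_MgHCF 2 rose and 8 fell, or 1 and 8 without replicate 3. Of these 11 genes 6 are abundant. The light chains Myl12a (152 to 934 FPKM, 2.60), Myl12b (60.1 to 326, 2.40) and Myl6 (119 to 505, 2.07) rose, and Ppp1r12a, the targeting subunit of myosin phosphatase, fell (10.4 to 1.94, -1.97). Under TPM the DOX count became 3 up and 3 down, and that of D_MgHCF against DOX 3 up and 4 down (median -0.20). Rhoa, the small GTPase upstream of this motor, was lower in D_MgHCF than in Unt (40.2 to 26.5 FPKM, -0.60). Of 22 focal adhesion and crosslinker genes 13 were higher and 1 lower in DOX (median 0.64), led by Itgb1 (132 to 580 FPKM, 2.12), Parva (2.05) and Actn4 (1.93). This list turned with TPM scaling to 4 higher and 14 lower (median -0.64). Of these 22 genes 12 are abundant. Going from DOX to D_MgHCF 3 rose and 18 fell, or 3 and 19 without replicate 3, and 5 and 5 with TPM scaling. In D_MgHCF against Unt 2 of the 22 were higher and 9 lower, or 3 and 10 without replicate 3. Beside this, 24.3% of all genes were higher and 15.7% lower, and 22.8% and 25.8% of abundant genes. The lower genes included Lims1 (-1.19), Lpp (-1.15) and zyxin, Zyx (29.0 to 14.3 FPKM, -1.07).

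Regulators of the CArG box were taken from a list of their own. Of 10 names listed, 8 were in the file and 7 were tested, since Mrtfa and Mrtfb appear under the symbols Mkl1 and Mkl2 and Myocd had too few values. In DOX against Unt 1 gene was higher and 3 lower (median -0.20), beside 18.6% of all genes higher and 19.9% lower, and with TPM scaling 0 were higher and 7 lower, beside 1111 and 10227 of all 25044 genes. The cofactors Mkl1 (11.2, 11.3 and 13.8 FPKM in Unt, 4.35, 3.59 and 3.03 in DOX, -1.50) and Mkl2 (4.23, 4.21 and 4.66, then 1.03, 0.884 and 0.673, -1.53) fell, under each of the 4 scalings. Elk4, a partner of Srf, was also lower (-0.49), and Elk3 was higher (0.54) but lower with TPM scaling (-0.77) and with summed reads (-0.34). Elk1 (-0.17) and Scai (-0.20), an inhibitor of these cofactors, were not called. Srf itself stood at 17.1, 19.4 and 20.9 FPKM in Unt, 25.2, 26.3 and 26.4 in DOX, 20.6, 23.0 and 23.9 in D_DXZ, and 53.3, 48.4 and 32 in D_MgHCF. Its D_MgHCF libraries were above those of every other group, and D_MgHCF exceeded Unt by 1.15 (SE 0.16, adjusted p = 0.000447), a call that held under each scaling. In DOX the change of Srf was 0.43 (adjusted p = 0.0628), and -0.91 with TPM scaling.

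**Figure D5:**
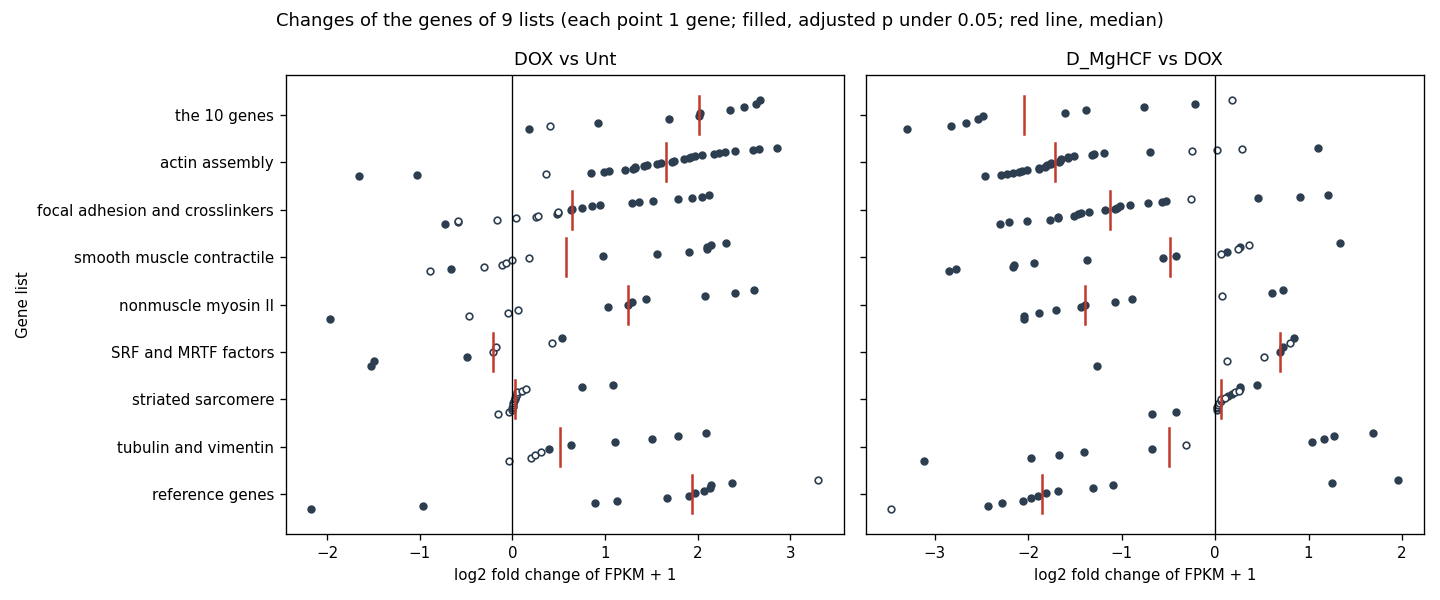
Log2 fold change of FPKM + 1 (x axis) of the genes of 9 lists (y axis), in DOX against Unt (left) and D_MgHCF against DOX (right), with 1 point per gene, filled for an adjusted p under 0.05, and a red line at the median of each list. The 10 genes and the actin assembly genes lie mostly to the right in DOX, with medians of 2.02 and 1.66, and the striated sarcomere genes lie near 0.

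Other actins and tropomyosin were measured for comparison. Tpm3 followed the 3 tropomyosins above (53.2 to 196 FPKM in DOX, 1.86, adjusted p = 1.09e-05, and 50.9 FPKM in D_MgHCF). The skeletal actin Acta1 was low and stood at 0.0776, 0.136 and 0.107 FPKM in Unt, 0.944, 0.710 and 0.281 in DOX, 1.17, 1.89 and 1.80 in D_DXZ, and 3.13, 1.74 and 0.0796 in D_MgHCF. In D_DXZ it rose against Unt (1.23, adjusted p = 0.0339), a call lost under TPM (adjusted p = 0.0919), whereas in D_MgHCF it differed from Unt by 1.06 (adjusted p = 0.0557), and by 1.60 without replicate 3 (adjusted p = 0.000284). The enteric smooth muscle actin Actg2 reached a mean of 0.780 FPKM in DOX against 0.148 in Unt (0.60, adjusted p = 0.0425), a call lost with TPM (adjusted p = 0.256) and summed reads (0.151). The cardiac actin Actc1 was at or below 0.153 FPKM in every library.

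The genes whose pattern over the 12 libraries was most like that of Acta2, by Pearson correlation of log2(FPKM + 1) among 4566 genes with a mean of at least 10 FPKM, were Anxa2 (r = 0.999), Rpsa (0.999) and Gm6560 (0.998). For Actb they were Pcbp2 (0.997), Cab39l (0.997) and Psma3 (0.996). These values are a description, since the points share their group and their library scaling. Anxa2, annexin A2, stood at a mean of 291 FPKM in Unt, 1490 in DOX, 1240 in D_DXZ and 333 in D_MgHCF, close to Acta2 in each group.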

How the data were processed

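RNA of 12 libraries (4 groups of 3) was sequenced as 150-base paired reads after poly(A) selection. The authors aligned reads with HISAT2 2.0.5 to GRCm38 (mm10), per the submitters' processing notes, and deposited FPKM per mouse gene in 1 table. Whether reads were counted by strand is not given in the sources used here. In every library 100% of the values were whole multiples of 1 read within 0.05 reads, so reads were recovered, and the scaling in the FPKM equalled a median-ratio factor. Intervals from reads cover counting error only.

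The main test was limma 3.58.1 (R 4.3.3) with a mean-variance trend on log2(FPKM + 1), with all 4 groups in 1 fit, for 25044 genes above 0 FPKM in at least 3 libraries. Fold changes on this scale understate low genes. A call is a Benjamini-Hochberg adjusted p under 0.05 over all genes tested, and adjusted p-values come from limma except those of ratios. Ratios within a library were compared on the log2 scale by exact two-sided permutation tests (scipy 1.17.1), adjusted over 30 tests. Near-identical stretches of at least 150 bases at 95% identity were found with BLAST 2.17.0. The fits were tested on simulated data.

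The 10 genes and the gene lists were chosen with earlier results of these data known. From each list, up to 3 rises and 3 falls per comparison were named, the largest among called genes with at least 1 FPKM in the higher group and no overlap of libraries. Lists of at most 4 genes, the CArG box regulators and the reference genes were open to naming in full. Genes named as absent markers, and the background of abundant genes, were chosen after their values were seen. The alternatives tried included 0.1 as pseudocount, filtering at 1 FPKM or not at all, unadjusted p, a 2-fold minimum, a replicate block, only the 2 groups compared, other scalings (TPM, summed reads, quantile), voom on recovered reads and leaving out each library. Gene lists under other scalings and without replicate 3 of D_MgHCF were added after seeing the data.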

Additional observations from a re-analysis of the deposited data

How the results depend on the processing

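Most fold changes of the 10 genes kept their side of the threshold. Direction was not counted for changes called in neither setting. The unadjusted p and the 2-fold minimum moved only the threshold, so fold changes could not differ there. Across settings other than leaving out a library, 586 fold changes stayed on their side of the threshold, called or not, 39 lost a call, 21 gained one and 2 that had been called changed sign. These were Actb with quantile normalization, at -0.30 in DOX and -0.16 in D_DXZ against Unt (limma adjusted p = 0.251 and 0.593). Changes that were not called also crossed 0, among them Acta2 in D_MgHCF against Unt (0.09, and -0.21 with quantile normalization). In D_MgHCF against Unt, 2 genes were higher and 2 lower. The higher count was 1 with the replicate block, 0 with only the 2 groups compared and 0 with a 2-fold minimum, and the lower count was 1 and 0 under the last 2 settings. In D_DXZ against DOX, 1 gene was lower at an unadjusted p. Against DOX, TPM scaling gave 1 gene higher in D_MgHCF. Against D_DXZ, 1 gene was higher with TPM scaling and 1 with summed reads, and 5 were lower with TPM scaling. Leaving out 1 library gave 8 to 10 genes higher in DOX and 7 to 9 in D_DXZ against Unt, 0 to 3 higher and 2 lower in D_MgHCF against Unt, 0 to 1 higher and 8 to 9 lower in D_MgHCF against DOX, and 0 to 1 higher and 7 to 9 lower against D_DXZ. The cause was not tested. Replicate numbers did not pair the samples across all groups: deviations of 18 same-number pairs correlated at -0.314 to 0.306 (median 0.018), with 2 over 0.1. Both of these joined DOX with D_DXZ (0.306 for replicate 1 and 0.22 for replicate 3). Replicate 2 gave 0.033 there, and different numbers gave -0.309 to 0.149. Whether replicate numbers were shared between these groups was not tested. With the replicate block, 0 genes were called in D_DXZ against DOX. Tagln in DOX (adjusted p = 0.0516) and Vcl in D_MgHCF (0.0530) against Unt also missed the threshold with the block. Values of Tagln, Cnn1 and Myl9 rest on few reads. Of 108 list counts per setting, 52 stayed within 1.5 times with TPM scaling, 71 with summed reads, 68 with quantile normalization and 97 without replicate 3 of D_MgHCF.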

Other observations

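Other filament systems were followed through 10 tubulin and vimentin genes. Against Unt, 5 of them rose in D_MgHCF and 2 fell, Vim and Tubb5 (-0.77), beside 24.3% of all genes higher and 15.7% lower. Tubb2a, a beta tubulin, stood at 42.0, 43.9 and 49.4 FPKM in Unt and 192, 214 and 119 in D_MgHCF (log2 fold change 1.89, limma adjusted p = 6.73e-05), and between 1.76 and 2.00 across the 4 scalings. Tubb3, the beta tubulin known from neurons, rose from 8.86 to 28.7 FPKM (1.59, adjusted p = 0.000225). Vim, which encodes the intermediate filament protein vimentin, was lower in D_MgHCF (122 FPKM) than in Unt (243 FPKM, -1.02, adjusted p = 0.00345), and stood at 1040 FPKM in DOX. Tubb2a, Tubb3 and Vim were called in the same direction under each scaling and without replicate 3 of D_MgHCF.

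Genes often used as references for expression were also followed. Of 12, of which 10 are abundant, 9 were higher and 2 lower in DOX than in Unt in the deposited FPKM, beside 82.5% of abundant genes higher. With TPM scaling, 6 of the 12 were higher and 3 lower in DOX. From Unt to DOX, B2m rose from 305 to 1600 FPKM (2.38), and Tbp fell (2.63 to 0.866 FPKM, -0.97). Gapdh varied within groups, at 112, 2.15 and 85.8 FPKM in DOX and 80.4, 35.3 and 1.74 in D_DXZ against 1.47 to 2.40 in all Unt and D_MgHCF libraries. It was not called in DOX against Unt (3.30, limma adjusted p = 0.0938). Of 22 striated sarcomere genes 17 were tested, and 2 were higher in DOX than in Unt, beside 18.6% of all genes higher. Tnnc1, the troponin C of slow and cardiac muscle, was among these 2 (log2 fold change 1.08 from 5.33 FPKM). With TPM scaling, and also with summed reads, 1 gene of this list was higher and 1 lower.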
